A study of Homo sapiens with 6 samples.

Results

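Of the 6264 summits in a MACS2 peak list of RNA fragments precipitated with an antibody against N1-methylguanosine (m1G), 410 lay outside every annotated gene span (6.55%, 95% Wilson interval 5.96 to 7.18). A summit is the single base at which MACS2 placed the top of a peak. It was counted as outside when its position fell within no RefSeq gene of GRCh38.p14, of any biotype, with genes of miRNA, snoRNA, snRNA and tRNA set aside. Of the remaining summits, 5206 lay in exactly 1 gene span and 648 in several.

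The list comes from PANC-1, a human cell line established from a pancreatic ductal adenocarcinoma, whose cells were reverse transfected with siRNA using DharmaFECT 1. The first condition was depletion of TRMT5 for 4 days, with 1 input library and 2 m1G precipitates. The second was control cells, labelled WT control, also with 1 input library and 2 m1G precipitates. These 6 libraries came from polyA+ RNA broken into fragments, and all carried experiment 1 in their titles. The labels do not say whether paired precipitates were separate cultures. The MACS2 list, and a second list of peaks with blocks and strand from MeTDiff, marks neither condition nor library and holds no read counts. The depth is therefore unknown, no value has an error over replicates, and knockdown was not compared with control. Intervals cover counting error over positions only, and positions are not replicates.

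m1G is a guanosine with a methyl group on its Watson-Crick face, and TRMT5 is the methyltransferase that places it next to the anticodon of tRNAs. Many human genes start at several positions within a GC-rich promoter, and an annotation gives each gene a single outermost start.

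Most outside summits lay just before the annotated start of a gene, on the promoter side. A gene is named here as the nearest one by position, and no transcript was assigned to a summit. The 60 bases before the annotated start of 8 genes are shown because they hold 8 of the 12 highest-scoring outside summits and let the position of each be read. They are RefSeq sequence (GRCh38.p14), written 5′ to 3′ on the strand of the gene, with the last letter next to the first annotated base. The 5 capitals are centred on the summit. The windows are chr3:186570660-186570719 (+) for DNAJB11, chr5:177303739-177303798 (+) for PRELID1, chr18:74291964-74292023 (−) for CYB5A and chr20:59007255-59007314 (−) for CTSZ. Those of the other genes are chr17:75405679-75405738 (−) for GRB2, chr12:110742892-110742951 (−) for PPP1CC, chr19:55407789-55407848 (−) for UBE2S and chr16:2752578-2752637 (+) for SRRM2.
DNAJB11: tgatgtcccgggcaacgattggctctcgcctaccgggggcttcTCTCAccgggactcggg
PRELID1: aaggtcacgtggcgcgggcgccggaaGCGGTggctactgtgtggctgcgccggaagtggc
CYB5A: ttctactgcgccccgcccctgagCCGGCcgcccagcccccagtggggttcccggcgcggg
CTSZ: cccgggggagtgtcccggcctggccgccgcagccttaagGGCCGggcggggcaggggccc
GRB2: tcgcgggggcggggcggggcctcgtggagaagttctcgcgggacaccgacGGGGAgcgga
PPP1CC: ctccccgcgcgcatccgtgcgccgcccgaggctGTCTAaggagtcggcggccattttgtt
UBE2S: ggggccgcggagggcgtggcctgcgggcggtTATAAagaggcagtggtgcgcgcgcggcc
SRRM2: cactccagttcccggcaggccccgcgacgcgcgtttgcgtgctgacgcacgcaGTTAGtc

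The summit before DNAJB11, an endoplasmic reticulum co-chaperone of BiP, scored 126 at 15 bp from the gene and had the highest score of the whole list. The score is the authors' −log10 of either the p-value or the q-value of the summit, and which one was not stated. PRELID1, a mitochondrial lipid transfer protein, followed with 81.6 at 32 bp, and CYB5A, the electron carrier cytochrome b5, with 76.2 at 35 bp. CTSZ, a lysosomal cysteine protease, had 74.4 at 19 bp. The 8 summits in the printed sequences stood 5 to 35 bp before the start. GRB2, the adaptor between receptor tyrosine kinases and RAS activation, had 67.9 at 8 bp, and PPP1CC, a catalytic subunit of protein phosphatase 1, had 65.2 at 25 bp. UBE2S, the ubiquitin-conjugating enzyme that extends chains for the anaphase-promoting complex, had 64.0 at 27 bp. SRRM2, a scaffold of nuclear speckles, had 61.6 at 5 bp. The other 4 of the top 12 were RRP1, a nucleolar protein, with 70.8 at 35 bp, PGAM5, a mitochondrial phosphatase, with 65.1 at 41 bp, the proteasome subunit PSMA7 with 63.7 at 25 bp, and ACSL3, a long-chain acyl-CoA synthetase, with 63.4 at 18 bp. All 12 lay upstream of their gene. The next members by score were PEDS1 (58.6), which makes the vinyl ether bond of plasmalogens, SLC25A29 (58.0), a mitochondrial carrier of basic amino acids, and NENF (53.9), a secreted protein.

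Of the 410 outside summits, 366 lay upstream of the nearest gene (89.3%, interval 85.9 to 91.9), 13 downstream (3.17%) and 31 next to a gene whose strand was not in the tables used here (7.56%). Among the 379 of known side, 96.6% were upstream (interval 94.2 to 98.0). The median distance to the gene was 35 bp, with quartiles of 17 and 85 bp and a range of 1 to 227358 bp. Within 50 bp lay 251 summits (61.2%), within 100 bp 321 (78.3%), within 500 bp 372 (90.7%) and within 1000 bp 383 (93.4%). Upstream summits had a median distance of 33 bp, and the 13 downstream ones a median of 2182 bp (42 to 10612). Only 1 downstream summit was closer than 500 bp to its gene, at 42 bp from NCBP2-AS1 with a score of 3.72. The nearest gene was protein-coding for 365 summits (89.0%), a lncRNA for 29 (7.07%), a pseudogene for 14 and an rRNA gene for 2. They spread over 24 chromosomes, the mitochondrial one included, and over 403 genes.

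Around gene starts the outside summits formed the upstream side of a pile that went on inside the genes. With strand from the RefSeq promoter table alone, 258 summits lay 1 to 100 bp before a start. In the first 100 bp of genes lay 418 summits, in the next 100 bp 227 and in the 100 bp after that 127. Per 25 bp, the stretch just before the start held 121 outside summits, and the 2 stretches just after it held 113 and 122 inside summits. Further out the density before the start fell faster, with 82, 35 and 20 summits in the next stretches upstream, against 122, 94 and 89 in the matching stretches inside. Upstream summits that lie in the span of another gene are not counted among the outside ones. At 3′ ends the picture differed. No inside summit with known strand lay in the last 100 bp of its gene, 1 lay in the last 200 bp, and 106 lay 200 to 400 bp before the end. The inside summit nearest to a 3′ end was 164 bp away from it, out of 4148, and 1 outside summit lay within 200 bp after a 3′ end.

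**Figure D1:**
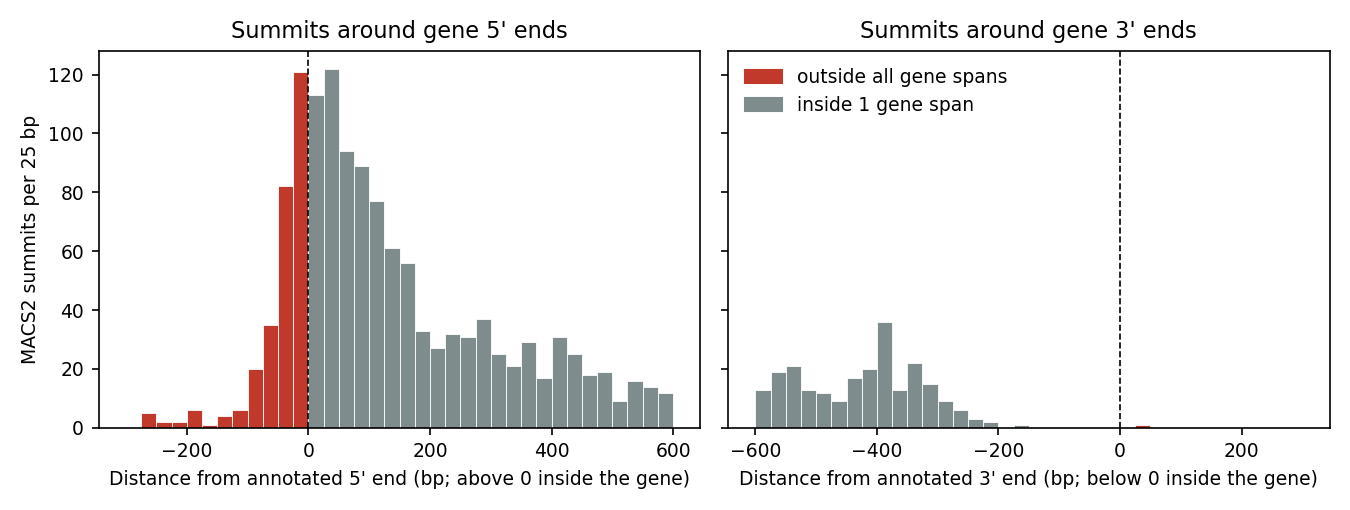
MACS2 summits per 25 bp around annotated gene 5′ ends (left) and 3′ ends (right), with distance in bp along the gene. Red bars are summits outside all gene spans with strand from the promoter table and grey bars are summits inside 1 gene span. The red bars before the 5′ end reach 121 summits beside 113 in the first grey bar, while the last 100 bp before the 3′ end hold 0.

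The rule turns on the annotated start, and the scores just outside and just inside it overlapped. The 35 outside summits within 5 bp of a gene had a median score of 18.3 (6.42 to 61.6), and the 20 inside summits within 5 bp of a gene end, all of them at the 5′ end, had 23.8 (9.53 to 48.5). These 2 sets were not chosen alike. The outside one includes genes of unknown strand, such as TOLLIP-DT, while the inside one holds only summits at a known end. Just outside were PEDS1 (58.6), TMEM123 (41.1), LRRC47 (20.5) and PFN2 (12.3), each at 1 bp. TMEM123 encodes a cell surface receptor and PFN2 a profilin. On the first annotated base itself lay the inside summits of RAB22A, an endosomal GTPase (33.6), SNRNP25 of the minor spliceosome (25.9) and RPS6KB1, the S6 kinase (19.5). No difference between these 2 sides was tested.

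Scores of outside summits covered nearly the whole range of the list. Their median was 17.2 (quartiles 10.3 and 26.4, range 2.21 to 126), and that of all summits was 16.4 (quartiles 10.2 and 25.6, range 2.01 to 126). The 351 summits less than 500 bp upstream of a gene had a median of 18.4. Summits in the first 100 bp of a gene had 21.3 (n = 418), and summits 500 bp or more from both gene ends had 16.0 (n = 3027). Within the upstream group the median score was 20.4 at 1 to 10 bp (n = 69), 23.9 at 11 to 25 bp (n = 78), 18.3 at 26 to 50 bp (n = 92) and 16.1 at 51 to 100 bp (n = 67). It was 10.7 at over 100 and up to 200 bp (n = 17) and 7.37 at 201 to 499 bp (n = 28). The 12 highest scores all lay within 50 bp of the start, and scores below 10 occurred in every distance class.

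**Figure D2:**
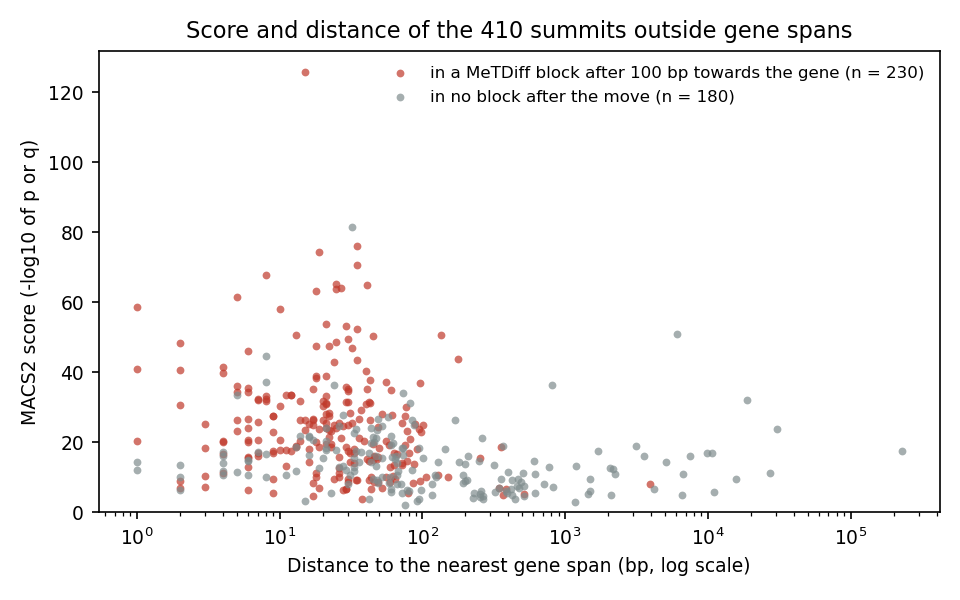
MACS2 score (−log10 of p or q) against distance to the nearest gene span in bp on a log scale, 1 point for each of the 410 outside summits. Red points lie in a MeTDiff block after a move of 100 bp towards the gene (n = 230) and grey points do not (n = 180). Scores above 60 all lie within 50 bp of a gene.

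Where 1 MACS2 peak held an outside and an inside summit, the outside one usually had the higher score, in 12 of 15 such peaks. Before AKT2, a kinase of insulin signalling, the outside summit had 25.3 at 16 bp and the inside one 12.6. Before MTCL2 the 2 summits had 26.0 and 5.19, and before OXLD1 27.1 and 6.37. The exceptions were ALKBH5, an RNA demethylase of N6-methyladenosine (4.74 outside, 11.0 inside), SLC66A2 (4.42 outside, 22.4 inside) and mitochondrial RNR1, the small ribosomal RNA (5.37 outside, 38.0 inside). In all 3 the outside summit lay over 200 bp from the gene, as it did before PCBD2 (229 bp), where the outside summit had the higher score (5.54 outside, 2.68 inside).

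A pair of outside summits stood next to each of 7 genes. In KCMF1, a ubiquitin ligase, the summit at 6 bp had a score of 46.1 and that at 460 bp had 7.64. FKBP10, a collagen prolyl isomerase, had 44.6 at 8 bp and 3.88 at 443 bp, and RNF130 had 23.3 at 23 bp and 4.85 at 370 bp. SYDE2 had 9.48 at 30 bp and 7.10 at 479 bp, and SMARCD2, a chromatin remodelling subunit, had 3.93 at 95 bp and 3.79 at 266 bp. In each of these 5 genes the nearer summit had the higher score. The other 2 pairs lay downstream, by C1QTNF12 (16.0 and 11.1) and LOC105378153 (773 and 1166 bp away, the nearer one again higher).

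MeTDiff blocks, the second caller's regions, hardly covered the outside summits where they stood. A block held 26 of the 410 (6.34%, interval 4.36 to 9.13), against 35.3% of the whole list and 36.8% of the 4148 summits in 1 span of known strand. MeTDiff peaks carry gene IDs, and the blocks at CTSZ, UBE2S, CD320 and MELTF stop exactly at the annotated gene start. Where blocks follow annotated genes, few can lie outside all gene spans. The low share is therefore in part set by the choice of summits and does not measure disagreement between the callers. After a move of 100 bp towards the nearest gene, 230 lay in a block (56.1%, interval 51.3 to 60.8). The background for a move of 100 bp along transcription was 68.3% of the 4148, and for the same move against transcription it was 14.6%. The moved share of the outside summits was thus not above the background, and it is no result about them. After a move of 100 bp away from the gene, 23 outside summits lay in a block (5.61%). In all, 207 entered a block only after the move towards the gene (50.5%), 23 were in one both before and after it, and 177 in neither place (43.2%).

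The share changed smoothly with the length of the move. It was 16.6% after 25 bp, 32.2% after 50 bp, 50.7% after 75 bp, 56.1% after 100 bp, 56.8% after 125 bp, 51.7% after 150 bp, 21.7% after 200 bp and 6.10% after 300 bp. The 351 upstream summits within 500 bp behaved in the same way, with 7.41% without a move, 63.5% after 100 bp (interval 58.4 to 68.4) and 24.5% after 200 bp. Summits in the first 100 bp of genes had 38.3% without a move and 77.0% after 100 bp. Summits far inside genes had 34.2% and 65.9%. The peak of each curve lay between 75 and 125 bp, so the displacement between the 2 lists was seen inside genes as well as in front of them. Upstream summits of genes on the + strand reached 56.2% after 100 bp and 61.4% after 125 bp (n = 153), and those on the − strand 69.2% and 66.7% (n = 198). The 4148 inside summits after 100 bp had 66.3% on the + strand and 70.4% on the − strand.

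**Figure D3:**
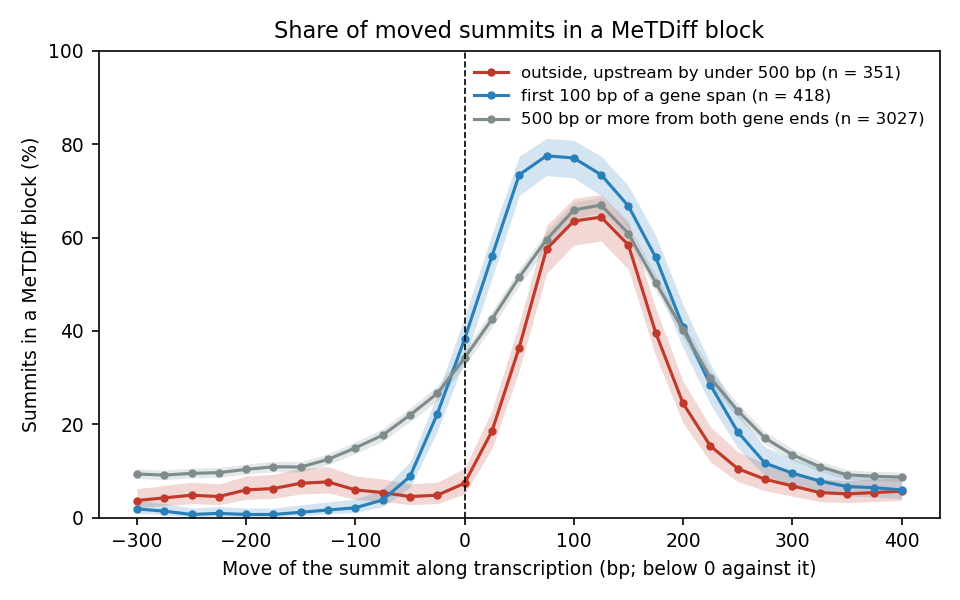
Percentage of summits inside a MeTDiff block after a move along transcription (x axis, bp, below 0 against it), with 95% Wilson intervals as bands. Red is outside summits less than 500 bp upstream (n = 351), blue the first 100 bp of genes (n = 418) and grey summits 500 bp or more from both ends (n = 3027). All 3 curves are highest between 75 and 125 bp, and at 0 the red one stands at 7.41% beside 38.3% and 34.2%. The red value at 0 is in part set by the choice of summits outside gene spans.

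The displacement can also be read without a fixed move. A block midpoint on the strand of the gene lay within 500 bp of 254 of the 351 upstream summits, at a median of 116 bp downstream (quartiles 98.5 and 136.75), and it was on the downstream side for 252 of 254. In the first 100 bp of genes the median was 104.5 bp, with 343 of 355 downstream. Far inside genes it was 99.5 bp, with 2170 of 2562 downstream (84.7%). Since the upstream summits were chosen for lying before a gene start, their direction is in part fixed by that choice.

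The blocks that upstream summits reached began close to the gene start. Over 223 of them, the 5′ edge lay at a median of 12 bp inside the gene (quartiles −2.5 and 43.5) and the 3′ edge at 149 bp. These summits lay a median of 25 bp before the gene and were moved 100 bp, and some blocks stop at the annotated start. The position of the blocks is therefore in part set by the choice of summits and by the annotation. The block was on the strand of the gene in 218 of 223 (97.8%). Their MeTDiff fold, the authors' enrichment of precipitate over input, had a median of 9.50 (2.16 to 43.6), and that of all 18431 MeTDiff peaks had 4.24 (1.03 to 73.9). The 223 were picked through a MACS2 summit, while the 18431 include peaks without one. Folds of blocks reached from inside summits were not compared, so the difference cannot be called particular to upstream summits. Spliced peaks, with more than 1 block, made up 35.9% of the 223 reached peaks and 33.1% of all MeTDiff peaks. CYB5A entered a block of 43.6-fold (chr18:74291873-74291973), and NENF one of 42.5-fold (chr1:212432969-212433114). DNAJB11 entered one of 23.3-fold (chr3:186570716-186570916), GRB2 one of 23.4-fold and PGAM5 one of 27.5-fold. RRP1 and PPP1CC both had 21.7, ACSL3 16.8, CTSZ 15.5, PSMA7 10.9 and UBE2S 7.70. The order of folds did not follow that of scores, since DNAJB11 led by score and CYB5A by fold. The folds and scores come from different callers and were not combined.

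The 26 summits already in a block without a move were mostly held by one that crossed the gene start. The block reached into the nearest gene in 25 of 26 and was on its strand in 24. Their median score was 24.9 and their median distance 41 bp. SRRM2, with 61.6, was in a block of 18.7-fold (chr16:2752626-2752854) that begins before the gene start. PEDS1 (58.6) was in one of 17.8-fold, SLC25A29 (58.0) in one of 17.7-fold and RTKN in one of 14.9-fold at 135 bp from the gene (50.6). ATP6AP1, an accessory subunit of the V-ATPase, had 49.4 at 30 bp in a block of 22.4-fold. ERO1A, the oxidase of disulfide formation in the endoplasmic reticulum, had 43.7 at 177 bp in such a block too.

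Whether a summit reached a block varied with its distance and its score. The share after the move was 76.8% at 1 to 10 bp (53 of 69), 78.2% at 11 to 25 bp, 71.7% at 26 to 50 bp and 50.7% at 51 to 100 bp. It was 35.3% at over 100 and up to 200 bp (6 of 17) and 10.7% at 201 to 499 bp (3 of 28). A move of 100 bp ends before the gene for the last 2 classes. Over the 410, in 4 equal classes from low to high score, it was 37.9%, 37.3%, 61.8% and 87.4%, while the median distance was 86, 46, 26.5 and 21 bp. In the same score classes, summits in the first 100 bp of genes had 51.8%, 67.0%, 84.6% and 88.5%, and summits far inside genes had 49.9%, 64.5%, 72.3% and 79.8%. In the highest class the 3 groups lay between 79.8 and 88.5%. In the lower 3 classes the outside summits had the lowest share, and their distance to the gene also differed between classes. The part of distance in this was not tested.

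**Figure D4:**
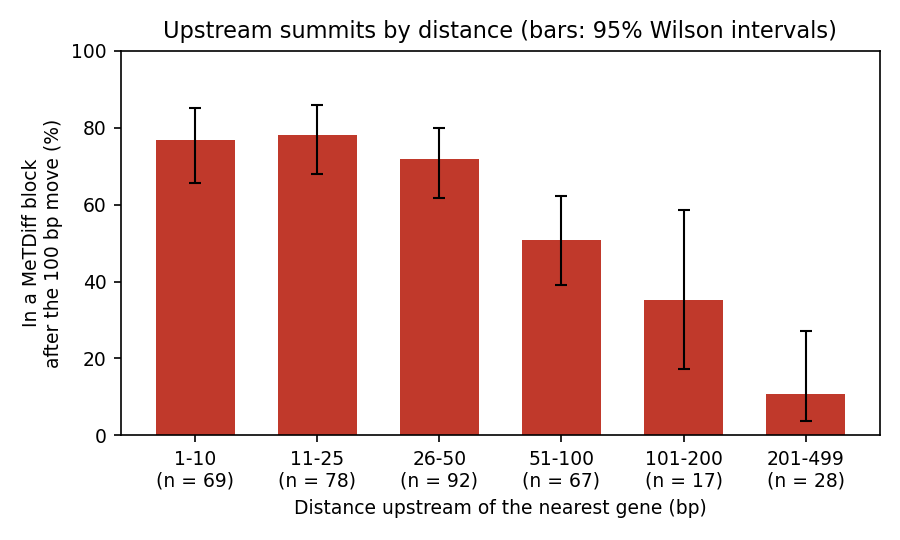
Percentage of upstream outside summits in a MeTDiff block after a move of 100 bp towards the gene, by distance in bp, with 95% Wilson intervals as error bars. The classes up to 50 bp stand between 71.7 and 78.2%, and the class of 201 to 499 bp at 10.7%.

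Of the 351 upstream summits, 128 lay in no block after the move, and 3 of these had stood in one before it. Their median score was 13.6 and their median distance 58.5 bp, beside 23.3 and 25 bp for the 223 that did. The gene held no MeTDiff peak for 50 of the 128 (39.1%), and among the 301 with such a peak in the gene the share in a block was 74.1%. By score the first of the 128 were PRELID1 (81.6), FKBP10 (44.6) and RPLP1, a protein of the ribosomal stalk (37.2). PDIA3, a disulfide isomerase of the endoplasmic reticulum (36.3), stood in a block of 5.47-fold without a move and left it after the move. HSF1, the heat shock transcription factor, followed with 34.3 at 73 bp. RPLP1 had no MeTDiff peak in its span, while PRELID1 and HSF1 had 3 each and PDIA3 had 2. Over all 410, the nearest gene held a MeTDiff peak for 328 (80.0%) and a further MACS2 summit for 143 (34.9%). For the 351 upstream summits these shares were 85.8% and 35.9%. Summits in the first 100 bp of genes had 93.3% and 30.6% (n = 418).

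Some outside summits lay between the starts of neighbouring genes that run apart. Such a second start lay within 1000 bp on the other side of 87 of the 351 upstream summits (24.8%). A move away from the nearest gene put 14 of these 87 in a block (16.1%, interval 9.83 to 25.2), against 7 of the other 264 (2.65%, interval 1.29 to 5.37). The move towards the gene gave 59.8% and 64.8%. PRELID1 was such a case. The start of RAB24, a GTPase of the autophagy pathway, lay 48 bp from the summit on the other side, and the move away from PRELID1 entered a block of 34.0-fold (chr5:177303597-177303695). The same MACS2 peak held a further summit in RAB24, with a score of 28.1. The nearest gene by distance was thus not always the gene of the block.

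Blocks on the far side were also counted by the kind of nearest gene. Of the 29 summits next to a lncRNA, 3 lay in a block after the move towards the lncRNA (10.3%, interval 3.58 to 26.4) and 8 lay in one after the move away from it but not after the move towards it (27.6%, interval 14.7 to 45.7). For the 365 next to protein-coding genes the shares were 61.4% and 1.10%. The lncRNA members lay far out more often, with 9 of 29 at 500 bp or more against 21 of 365. Their median score was also lower, 13.2 against 17.8. The part of distance and score in these shares was not tested. The 8 were TOLLIP-DT (33.7), LOC105374101 beside CNBP (26.4), ENO1-AS1 beside the glycolytic enzyme gene ENO1 (24.7), LOC124901405 beside HBS1L (18.4), RAB35-AS1 (16.5), TRIM52-AS1 (13.2), LOC124903714 beside AP1G1 (10.1) and GOLGA7B-DT (3.25). In LOC124903714 the summit lay 2 bp from the lncRNA and 122 bp from AP1G1, a subunit of the AP-1 clathrin adaptor, whose side held the block, and it stood in the same block also without a move. ENO1 lay 97 bp away, with a block of 5.00-fold. Those that moved into a block of the lncRNA side were LOC101930100 (26.5), LINC00667 (21.6) and MIR210HG (20.6). Counting a move in either direction, 242 of the 410 lay in a block (59.0%). These 8 were singled out after their values were seen.

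Families were set by the first letters of the gene symbol, and long noncoding genes and pseudogenes by biotype. By gene family, 5 outside summits lay next to proteasome genes (1.22%) and 25 of the 5206 inside summits lay in them (0.480%). Those were PSMA7 (63.7), PSME4 (29.2), PSMD12 (25.6), PSMB6 (15.4) and PSMD2 (11.9), and 4 of the 5 reached a block, PSMD2 being the exception. The block that PSME4 reached, however, shares its gene ID with a + strand block on the other side, while PSME4 runs on the − strand. It may thus not be a block of PSME4. Genes with an EIF or EEF symbol, mostly translation factors, made up 1.22% of outside and 0.922% of inside summits, led by EIF4G2 (26.6), EIF2B1 (17.5) and EIF2S2 (16.9), and 3 of the 5 reached a block. One of the 5, EIF2AK2 (6.08), encodes the kinase PKR and not a translation factor. Cytosolic ribosomal protein genes had 1 outside summit, before RPLP1 (0.244%), and 56 inside (1.08%). Chaperone genes had DNAJB11 and HSP90B1, the endoplasmic reticulum paralogue of HSP90 (50.5 at 45 bp), and both reached a block, of 23.3-fold and 9.90-fold. SLC transporter genes had 8 (1.95%) against 130 inside (2.50%), with SLC25A29, SLC29A1, a nucleoside transporter (35.4), and SLC7A1, a cationic amino acid transporter (15.5), in front. Zinc finger genes had 4 against 73, led by ZNF8 (14.2), ZNF787 (13.5) and ZNF354A. Each of the following families had 2 outside summits. Splicing genes, taken as SRSF, HNRNP and SNRNP symbols, had SNRNP40 (30.9) and SNRNP70 (25.7), so the splicing factor gene U2AF2 was not counted. By symbol, oxidative phosphorylation had COX15 (28.1) and COX5B (18.8), and RAB GTPases had RAB32 (37.3) and RAB31 (34.9). Mitochondrial ribosomal proteins had MRPS15 (26.6) and MRPL58 (17.8). Tubulin, keratin and kinesin genes had 0 outside summits beside 9, 3 and 23 inside. Long noncoding genes made up 7.07% of outside and 1.75% of inside summits, and pseudogenes 3.41% and 1.08%. For all families the outside share counts the nearest gene at any distance, and the inside share the only gene that holds the summit. The 2 shares are thus unlike measures. Of the outside summits, 9 of the 29 by long noncoding genes and 7 of the 14 by pseudogenes lay 500 bp or more away. By score the pseudogenes were led by KYNUP1 (32.0), RPS16P1 (30.9) and HMGB1P5 (23.6). These counts are descriptions without a test, and 0 outside summits lay next to TRMT5 or NES.

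The sequence around the upstream summits was rich in G and C. In the stretch of 50 bases to either side of each of 267 summits the median was 75.2% (48.5 to 91.1), beside 74.3% for genes with a summit in their first 100 bp (n = 396), 65.3% for protein-coding genes (n = 13820) and 60.4% for all RefSeq promoters of the table (n = 24885). The windows of the last 3 groups were centred 29 bp before the start. The median number of CpG was 13 around outside summits, then 13, 9 and 5 in the other groups. In both measures the outside summits lay close to the genes with a summit in their first 100 bp. The letters GGGCGG, the core of the GC box, were searched on both strands of the 100 bases before the start and were present in 68.3% of 287 genes with an upstream summit. The share was 66.7% for genes with a summit in the first 100 bp, 42.9% for protein-coding genes and 30.7% for all promoters. CCAAT was present in 22.0%, then in 23.0%, 21.5% and 18.8% of the other groups. TATAAA was present in 1.39% (4 of 287, interval 0.543 to 3.53), then in 1.01%, 5.81% and 5.48%. In the printed bases before UBE2S the capitals fall on letters of TATAAA, and GRB2, CTSZ, CYB5A, PPP1CC and UBE2S hold GGGCGG on one of the strands. The first annotated base was G in 43.9% and A in 43.2% of the 287 genes. It was G in 48.7% and A in 41.9% of genes with a summit in the first 100 bp, in 36.2% and 50.9% of protein-coding genes and in 33.0% and 44.1% of all genes. A match is a description of letters and not a bound site.

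Finally, 38 outside summits lay 500 bp or more from any gene. Of these, 15 were upstream, 12 downstream and 11 of unknown side, and their nearest gene was protein-coding for 21, a lncRNA for 9, a pseudogene for 7 and an rRNA gene for 1. Their median score was 11.2 (3.01 to 51.0), beside 18.4 for the upstream summits nearer to genes. In a MeTDiff block stood 0 of the 38 (Wilson interval up to 9.18%). Where blocks follow annotated genes, few can lie this far from one, so the 0 is in part set by the choice of summits. After the move 2 entered a block, near LOC100288712 (9.50-fold) and before the splicing factor gene U2AF2 (2.23-fold). The highest score, 51.0, lay at chr9:76571769, 6041 bp after LOC105376093. B3GALT6, a galactosyltransferase of proteoglycan synthesis, had 36.5 at 815 bp downstream, and both summits after C1QTNF12 lay close to it on chromosome 1. KYNUP1 had 32.0 at 18778 bp, but that summit lay 8 bp from SNORD3A, the U3 snoRNA gene, which the rule had set aside. LOC105379027 had 23.8 at 30632 bp, and GSDMD, the pore-forming gasdermin D, had 18.9 at 3146 bp. The farthest were RNU6-309P on the X chromosome, at 227358 bp with 17.5, LOC105379027, and ONECUT3 at 27260 bp with 11.4. On chromosome 21, 3 of the 38 lay nearest to ribosomal RNA copies, RNA18SP5 (17.6), RNA45SN3 (17.0) and RNA5-8SP10 (4.67). Reads from repeated ribosomal copies can be placed at several of them, so these positions are uncertain. Within 200 bp of a small RNA gene lay 5 of the 410 outside summits, among them HSP90B1 at 60 bp from MIR3652 and the kinase gene CDK9, whose summit of 31.5 lay inside MIR2861.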

How the data were processed

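The labels describe 6 libraries of PANC-1 RNA, and both deposited lists cover the series as a whole. STAR 2.7.1, MACS2 2.2.5 and the build GRCh38 are named per the submitters' processing notes. Settings, roles and any pooling of libraries were not given in the sources used here. The first deposited list gives 1-bp summits with the −log10 of either a p-value or a q-value, as MACS2 writes it. The second, from MeTDiff, gives a deposited p-value, the log10 of the false discovery rate and a fold, the ratio of precipitate to input. The file has no header, so what each column holds was inferred from its values and its place. The p-value was not used.

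BED starts were counted from 0. Spans were RefSeq genes (GRCh38.p14) without miRNA, snoRNA, snRNA and tRNA genes. Strand came from the RefSeq promoter table for 322 summits and from MeTDiff peaks inside the gene for 57. The 2 sources gave the same strand for 2398 of 2474 genes (96.9%). Sequence was read only from promoter windows of 250 bp before to 50 bp after a start, so windows downstream of genes and the letters AATAAA were not analysed here. Scripts ran in Python 3.11.15 with pandas 2.3.3 and NumPy 2.4.6, and placement was tested on simulated positions. Wilson intervals are at 95%. No test over libraries was possible. Genes named were the highest in score in the whole list, by side, by distance class, by block class and by family, those within 5 bp of a gene end and those with most summits. Of the summits within 5 bp only some are named. The members and lists were chosen with earlier results of these data known.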

Additional observations from a re-analysis of the deposited data

How the results depend on the processing

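Of 39 alternative settings over 7 results, 23 stayed within the limits set for calling a value moved, and 16 moved. The number of outside summits was 402 to 596 over the other alternatives, and 219 with only scores at or above the median of the list. That cutoff also gave 92.7% upstream, a median distance of 25 bp, 95.9% within 500 bp of a gene and 73.5% in a block after the move. The upstream share was 94.4% for members within 500 bp, 96.6% for those of known side and 96.6% with strand from RefSeq alone. The share near a gene was 82.9% at 200 bp, 93.4% at 1000 bp and 87.1% with the nearest protein-coding gene within 500 bp. Within 100 bp of a block lay 59.8% of unmoved summits. The share in a block was 32.2% after 50 bp, 21.7% after 200 bp, 5.61% after 100 bp away from the gene and 61.3% for members within 500 bp. The settings for known side, for RefSeq strand and for a move within 500 bp were among 5 chosen after seeing the data. No paired analysis was possible because the lists hold no libraries, and leaving out a replicate was not possible for the same reason. Depth is unknown, and without read counts a summit of low score cannot be given a counting error.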
